A study of Oncorhynchus mykiss with 42 samples.

Results

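In cultured rainbow trout testis, 135 of 8175 measured cDNA clones rose when the tissue was kept in medium without hormone and lay at nearly the same level when follicle-stimulating hormone (FSH) or luteinizing hormone (LH) was added. They were chosen by their own deposited values, some of which lay at background before culture. For most of the clones at background a 2-fold rise is not shown. A clone was kept when its mean log2 signal after hormone-free culture (Ctrl) exceeded that before culture (T0) by at least 1, a 2-fold rise, in testes of stage I-II and again in testes of stage III. The means over both stages of FSH minus Ctrl and of LH minus Ctrl also had to lie between -0.25 and 0.25. In all, 229 clones met the first condition, and the other 94 fell outside the hormone window. The differences used for this choice are therefore a description. Where test results or intervals for them are given below, they are conditioned on the choice and carry no further weight.

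The testes came from an all-male population of rainbow trout (Oncorhynchus mykiss) and were profiled as whole tissue. Per the labels, T0 samples were not cultured, and the other samples were testis fragments kept for 96 h at 12 °C in modified L15 medium with Ultroser SF, renewed at 48 h. Ctrl fragments received no hormone, and FSH and LH fragments received 500 ng/mL of the purified salmonid hormone. At each stage T0 was measured on 3 arrays, and Ctrl, FSH and LH on 6 apiece, making 42 in all. The labels do not tie arrays to separate fish, so the p-values below measure the spread between these samples, which may be technical. Testes of different stages also come from different fish, and these effects cannot be told apart.

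FSH and LH are pituitary hormones that drive the testis. FSH acts mainly through receptors on Sertoli cells, which nurse the germ cells, and LH mainly through receptors on Leydig cells, which make androgens. In trout both hormones raise steroid output, and higher stage numbers mark more advanced spermatogenesis. An explant has been cut, has lost its blood supply and lies in culture medium. The hormone-free culture, and not the fresh testis, is therefore the reference for a hormone effect. Tissue culture in general is known for responses to injury, altered cell adhesion and changed oxygen supply, and for the loss of some cell types. The clones are given by ID, because no gene is given beside a clone in the files and none of the 8175 IDs was found in the gene table used here. Marker genes of testis cell types and gene lists for these responses were therefore not analysed here. In whole tissue, a change in the share of cells of a type and a change in RNA per cell cannot be told apart.

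The median clone signal ran from 85 to 171 intensity units, 58.0% to 76.7% of clone positions lay above the background threshold, and every array correlated at 0.952 to 0.986 with its closest group mate over all clones. The scanner's maximum, 34468 units, was reached on 9 arrays, but by none of the 135 clones, whose highest signal was 9879. Levels below are log2 values of the authors' deposited table. A level of 1 clone cannot be set against that of another, since spots differ in the cDNA they carry.

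The 135 clones rose by a median of 1.42 on the log2 scale in stage I-II and by 1.42 in stage III between T0 and Ctrl, while the median over all 8175 clones was -0.04 at each stage. As the table gives them, the rises ran from 1.00 to 4.85 in stage I-II and from 1.01 to 4.44 in stage III. Most were moderate. In 102 clones the rise was under 2 at both stages, in 20 it was at least 2 at both, and in 7 it was at least 3 at both. All 135 passed limma's test for a rise at each stage, against a background of 14% of all clones in stage I-II and of 16.2% in stage III, which follows from the choice and carries no further weight.

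The same clones were raised on the arrays with hormone. FSH minus T0 had a median of 1.41 in stage I-II, while in stage III it was 1.48, with no clone under 0.815 and 0.868. For LH minus T0 the medians were 1.51 and 1.46 and the lowest values 0.637 and 0.815. In stage I-II, all 18 cultured arrays lay above all 3 T0 arrays for 132 of the 135 clones, and 9.39% of all 8175 clones showed this. In stage III it held for 130, with a background of 8.89%, and for 128 it held at both stages. These values follow from the choice, which fixed the rise and kept FSH and LH near Ctrl, and were read no further.

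**Figure D1:**
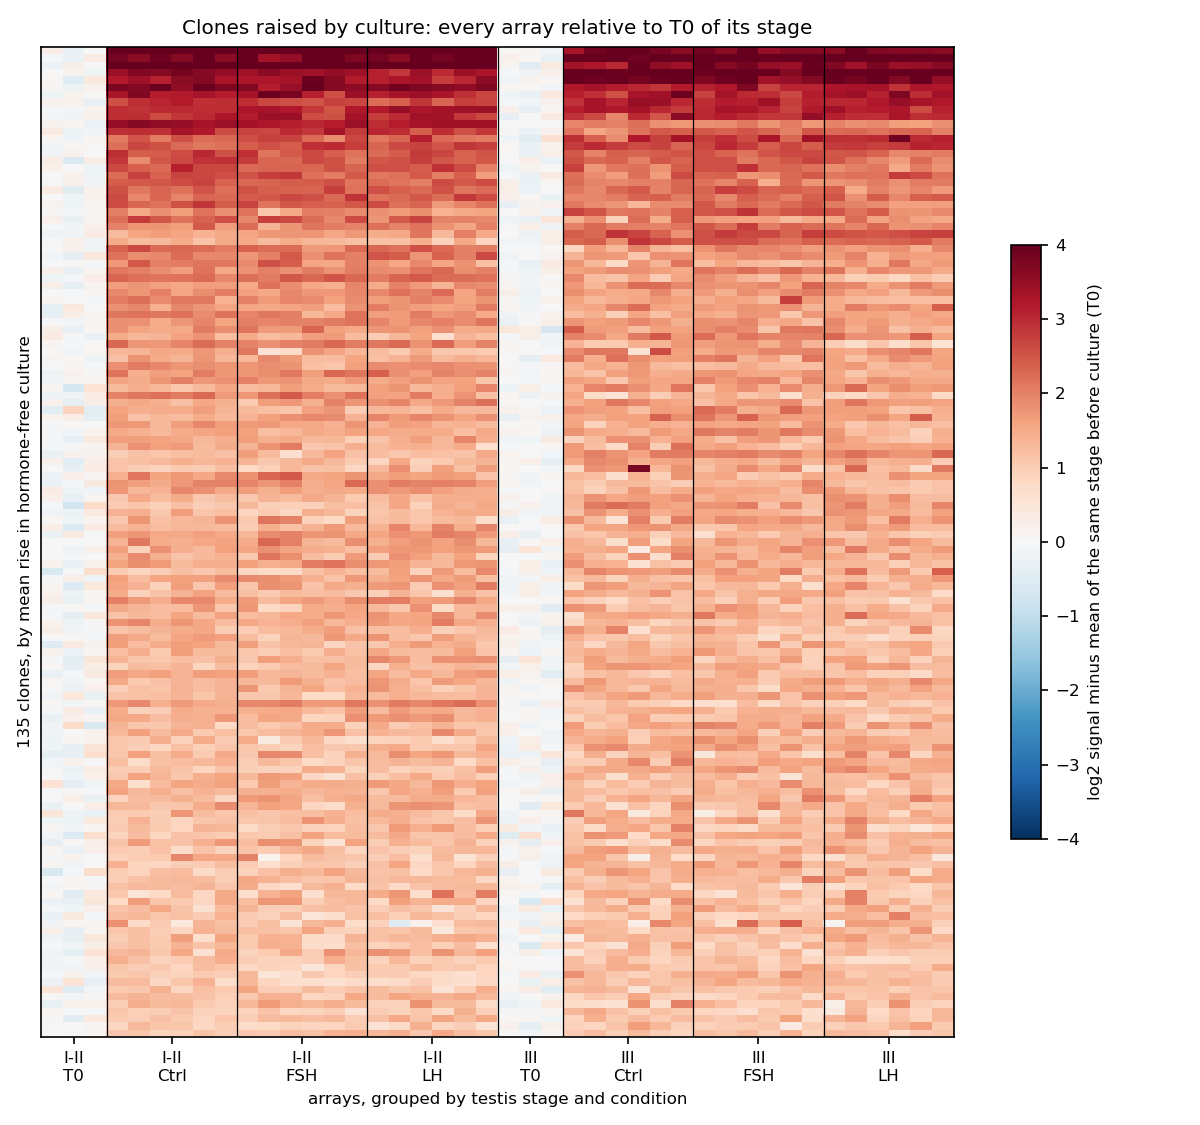
Each row is 1 of the 135 clones, ordered by its mean rise, and each column 1 of the 42 arrays, grouped by stage and condition. Colour is log2 signal minus the clone's T0 mean at that stage. The T0 columns lie around 0 and the cultured columns are almost wholly red, with no visible step between Ctrl, FSH and LH. In these groups the mean of the 135 clones was 9.22, 9.22 and 9.24 in stage I-II. Clone tcbk0035.b.05 read 6.14 on 1 LH array of stage I-II, below its T0 mean of 6.65.

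Averaged over the 135 clones, the level in stage I-II was 7.54 ± 0.098 at T0 (SD, n = 3 arrays) and 9.22 ± 0.033 in Ctrl (SD, n = 6). It was 9.22 ± 0.036 with FSH and 9.24 ± 0.029 with LH. In stage III the T0 level was 7.30 ± 0.019, and the cultured levels were 8.95 ± 0.059 in Ctrl, 8.99 ± 0.05 with FSH and 8.94 ± 0.049 with LH. The cultured groups of 1 stage thus lay within 0.05 of each other, which follows largely from the hormone window. The stage III mean was the lower one at T0 and in each culture.

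One measurement on the membranes moved the other way. The repeated control positions, recognised only by inference, read 730 ± 206 units at T0 and 285 ± 69.9 in Ctrl in stage I-II. With FSH and with LH at that stage they read 199 ± 25.3 and 124.5 ± 18.4. In stage III they read 577 ± 484 at T0, and 120 ± 25.2, 127 ± 21.9 and 131 ± 31.5 in Ctrl, FSH and LH. Their part in the rises and in the hormone differences was not tested.

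**Figure D2:**
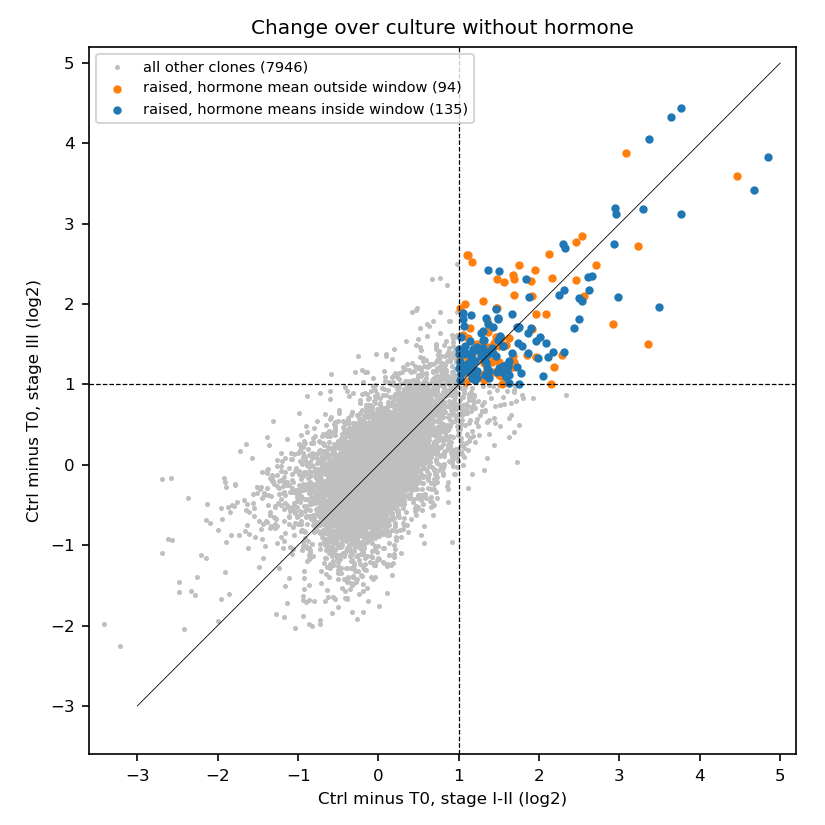
Ctrl minus T0 in stage I-II (x axis, log2) against stage III (y axis, log2) for every clone. Blue points are the 135 clones, orange points the 94 that rose as much but fell outside the hormone window, and grey points all others. The dashed lines mark the threshold of 1, and blue points lie on both sides of the diagonal, 68 above it and 67 below.

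The 10 clones with the greatest mean rise in the deposited values are taken next. Clone tcbk0019.f.14 belongs to them by its listed values only, since it lay at background before culture. In stage I-II it read 5.58, 5.85 and 6.11 on the T0 arrays, and its Ctrl arrays ran from 10.60 through a median of 10.65 to 10.87. In stage III the T0 arrays read 5.57, 5.73 and 5.74 and the Ctrl arrays ran from 8.99 to 9.98. No T0 array of either stage lay above background, so its rise is known only as a lower bound and has no rank among the 10. On the quantile-normalised log2 scanner scale it rose from 5.78 to 10.72 in stage I-II, at least 21.1-fold, and from 5.74 to 9.43 in stage III, at least 8.54-fold.

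Clone 1rt39g22_c_d11 was above background on every array. It read 7.81, 7.99 and 8.39 at T0 in stage I-II and 11.67, 11.82 and 12.06 at the lowest, the median and the highest Ctrl array. In stage III it read 6.55, 6.93 and 7.04 at T0, and Ctrl ran from 10.74 through 11.45 to 11.51. It rose by 3.77 ± 0.196 (SE), or 13.6-fold, in stage I-II and by 4.44 ± 0.196, or 21.7-fold, in stage III.

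Clone tcay0009.l.07 showed the opposite order of stages. It rose by 4.67 ± 0.168 in stage I-II, from T0 values of 7.71, 7.92 and 8.16 to Ctrl values of 12.32 to 12.88. In stage III it rose by 3.42 ± 0.168, from 6.90, 7.46 and 7.71 to between 10.38 and 11.32. At each stage the lowest Ctrl array stood far above the highest T0 array.

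Clone 1rt146k24_c_f12 read 7.85, 8.02 and 8.15 at T0 in stage I-II against 6.96, 7.01 and 7.31 in stage III. Its Ctrl arrays ran from 11.46 to 11.85 and from 11.02 to 11.76. The rises were 3.64 ± 0.159 and 4.33 ± 0.159, and after culture the stages overlapped although at T0 they had not. Clone tcbk0048.j.08 behaved alike, with rises of 3.37 ± 0.195 and 4.05 ± 0.195. Its T0 arrays read 7.24, 7.80 and 8.09 in stage I-II against 6.66, 6.86 and 6.95 in stage III, while its Ctrl arrays overlapped, at 10.82 to 11.37 and 10.66 to 11.56.

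Clone 1rt102i12_c_e06 started low, at 6.51, 6.74 and 6.87 in stage I-II and at 6.18, 6.34 and 6.39 in stage III, where 2 of 3 T0 arrays lay above background. Ctrl ran from 10.25 to 10.67 and from 9.15 to 9.63, rises of 3.77 ± 0.156 and 3.12 ± 0.156. Clone tcad0002.l.09 rose by 3.29 ± 0.226 and 3.19 ± 0.226. It went from 8.29, 8.53 and 8.60 to a Ctrl median of 11.69 in stage I-II, and from 7.44, 7.54 and 8.13 to a Ctrl median of 10.91 in stage III. The remaining 3 clones rose by nearly the same amount at both stages: 1rt154b14_d_a07 by 2.94 and 3.20, tcay0003.o.23 by 2.96 and 3.12, and tcac0006.o.18 by 2.93 and 2.75. Their T0 arrays ran from 6.88 to 8.14 and their Ctrl arrays from 9.27 to 11.18, with no overlap.

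**Figure D3:**
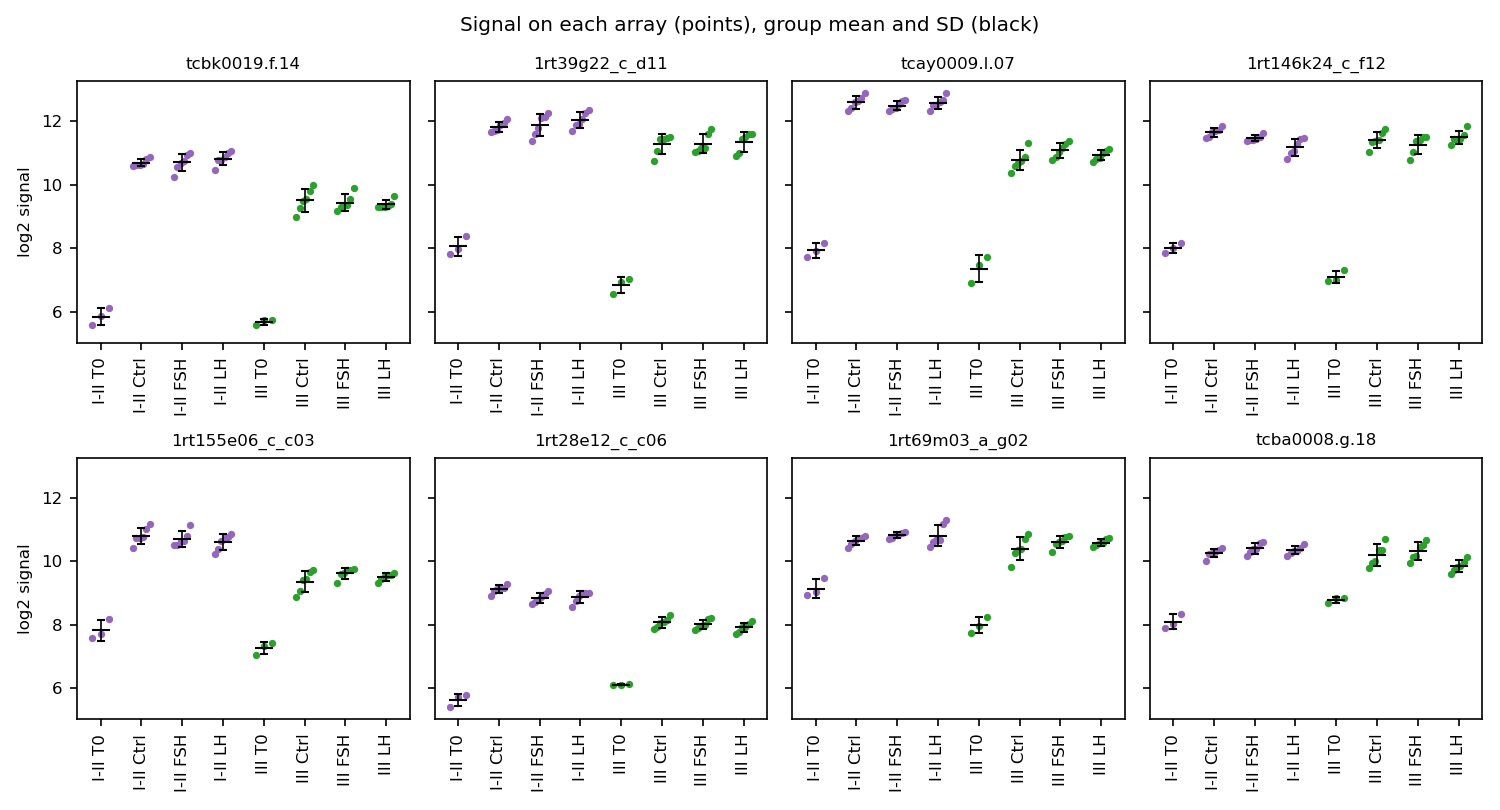
Log2 signal of 8 of the named clones on every array (points), with the group mean and SD in black, stage I-II in purple and stage III in green. In every panel the T0 points lie below all cultured points of the same stage, and the Ctrl, FSH and LH points of a stage lie close together. Clone tcay0009.l.07 falls from 12.60 in Ctrl of stage I-II to 10.78 in stage III, whereas 1rt69m03_a_g02 differs between stages mainly at T0.

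By the deposited values, 1rt106p06_d_h03, with differences of 1.00 and 1.44, and tcay0003.p.11, with 1.00 and 1.21, were the last to be kept. Neither was above background on any T0 array, so these differences are not exact rises. Their bounds on the scanner scale were at least 1.43-fold and 1.19-fold for the first, and at least 1.77-fold and 1.69-fold for the second. Just outside were tcad0006.e.15, with 1.63 in stage I-II but 0.998 in stage III, and 1rt78k04_c_f02, with 1.38 and 0.997. At the hormone window, tcbk0035.b.05 was kept with an LH minus Ctrl of -0.246 and tcay0036.o.17 with 0.241, while tcbk0038.l.01 fell out with an FSH minus Ctrl of -0.25 and tcba0015.e.19 with 0.254. The edge of the group is therefore set by the threshold, not by a gap in the values.

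The signal before culture was low for a minority of the clones. No T0 array lay above background for 17 clones in stage I-II and for 19 in stage III, 17 of them at both. For these the rise is known at most as a lower bound. At each stage most of the bounds lay under the 2-fold threshold, so a 2-fold rise is not shown for those clones. In stage I-II the bounds ran from 1.00-fold for tcbk0002.g.18 to 21.1-fold for tcbk0019.f.14. In stage III the log2 bound of tcbk0019.d.07 was -0.276, so no rise is shown there. In Ctrl, 128 of the 135 were above background on all 12 arrays. The median level of the 135 was 7.40 at T0 and 9.08 in Ctrl in stage I-II. In stage III it was 7.22 and 8.79. All clones had a median of 7.14 to 7.16 in these groups. By the mean Ctrl signal over both stages, which also depends on the cDNA of each spot, the brightest spots were those of 1rt161n06_d_g03, at 12.89 ± 0.191 in stage I-II, and 13.06 ± 0.176 at stage III, and tcay0034.e.13, at 12.52 ± 0.058 and 12.85 ± 0.251. Their T0 arrays ran from 10.64 to 11.83. By the same mean the dimmest spots were those of tcbk0019.d.07, at 6.79 ± 0.102 and 6.11 ± 0.182, and tcbk0023.k.06, at 6.54 ± 0.292 and 6.62 ± 0.603. Neither was above background on any T0 array.

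How closely hormone left these clones at the Ctrl level was only partly measurable. Over both stages, FSH minus Ctrl ran from -0.23 to 0.234 and LH minus Ctrl from -0.246 to 0.241, as the choice requires. The 95% intervals of both means lay inside -0.5 to 0.5 for 131 clones. This follows largely from the choice, since the means lay inside the window and the median half-width was 0.204 for each hormone. The intervals do not allow for the choice, so no size of hormone change is excluded by them. For 12 clones both intervals lay inside the window itself. The FSH interval left out 0 in 17 of the 135 clones, against 851 of all 8175, and the LH interval in 18, against 1720. The window limits these 2 counts of the 135. The name hormone-insensitive thus stands for changes under the window at this number of arrays, and not for a measured absence of response.

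The window was set on the mean of the stages, and single stages strayed from it. In 65 clones both hormones stayed inside -0.25 to 0.25 at each stage. FSH minus Ctrl left the window in 16 clones in stage I-II and in 28 in stage III, and LH minus Ctrl in 34 and 16. No clone passed the limma test for FSH in stage I-II or for LH in stage III, where 1.71% and 0.563% of all clones did. An unadjusted p under 0.05 was found there in 10 and 7 of the 135, against 657 and 789 of all 8175. With FSH in stage III 1 clone passed, tcba0006.a.17, against 1.38% of all clones. Its Ctrl arrays in stage III ran from 8.51 to 9.03 and its FSH arrays from 8.98 to 9.34, overlapping narrowly, and the difference was 0.44 ± 0.113 (adjusted p = 0.026, limma). With LH in stage I-II 1 clone passed, 1rt146k24_c_f12, against 2.97% of all clones. Its Ctrl arrays ran from 11.46 to 11.85 and its LH arrays from 10.82 to 11.47, and LH was lower by 0.47 ± 0.13 (adjusted p = 0.035). These counts follow from the window and were read no further.

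**Figure D4:**
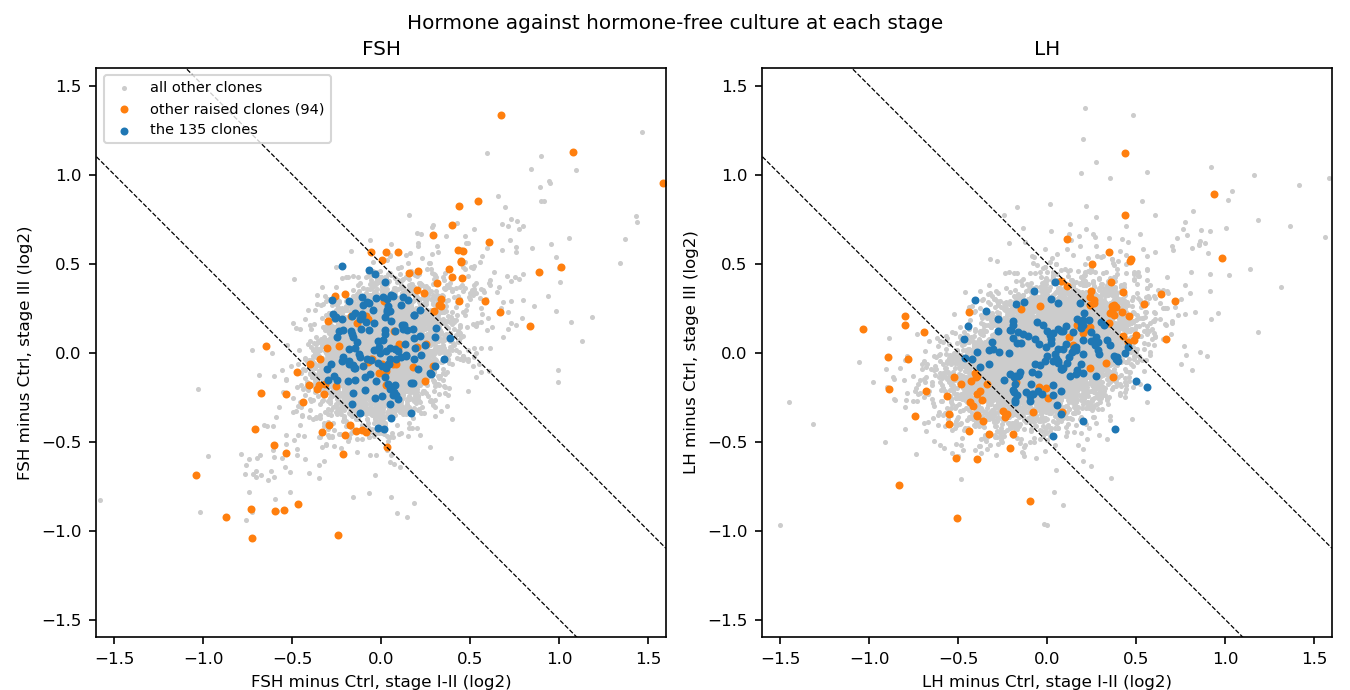
FSH minus Ctrl (left) and LH minus Ctrl (right), stage I-II on the x axis and stage III on the y axis, both log2. Blue points are the 135 clones, orange the 94 other raised clones and grey all others. The dashed lines mark a mean over stages of -0.25 and 0.25, and blue points spread along the band between them, from -0.47 to 0.56 for LH in stage I-II. Of all clones, 5 in the FSH panel and 3 in the LH panel lie beyond the axes.

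The choice limited the mean over stages of each hormone difference. It used the same arrays, and so left out clones with a large change at 1 stage alone. Within that limit, the difference between the stages was tested. The difference between the stages in FSH minus Ctrl passed limma's test, after Benjamini-Hochberg adjustment, in 0 of the 135 clones, with a background of 0% of the 8175. An unadjusted p under 0.05 was found in 14 of the 135 and in 318 of the 8175. For LH it passed in 0 of the 135, again with a background of 0%, and 18 had an unadjusted p under 0.05, against 557 of the 8175. For each hormone this unadjusted share was larger in the 135 than in all clones. Among the other 94 raised clones it was found in 13 for FSH and in 7 for LH. The larger FSH share was thus not particular to the 135, and the difference between these sets was not tested. Both comparisons share the Ctrl arrays. The FSH values ran from -0.50 for tcbi0010.b.07 to 0.71 for tcba0014.h.05, with a median of 0.04. The LH values ran from -0.81 for tcba0018.p.22 to 0.70, with a median of -0.04. The median half-width of the unadjusted 95% interval was 0.407. A call after adjustment over 8175 clones needs a larger difference than this, and even the 0.71 of tcba0014.h.05 was not called. The 0 calls therefore do not exclude differences of this size.

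Clone tcba0014.h.05 shows the kind of spread behind these values. In stage I-II it read 9.34 to 9.93 in Ctrl and 8.99 to 9.66 with FSH. In stage III it read 7.71 to 8.84 in Ctrl and 8.52 to 8.97 with FSH. The groups overlapped at each stage, and the adjusted p of the difference between stages was 0.51. Clone tcba0018.p.22, named after its values were seen, owed its place to 1 array: Ctrl replicate 58 of stage III, 1 of 3 arrays exported in another order, read 10.31 and the other 5 ran from 7.35 to 8.35. Without that array its LH value was -0.43 and its rise in stage III 1.51, against 1.89 with it.

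Many of the clones differed between testes of the stages. The level in stage III was lower than in stage I-II for 98 of the 135 clones at T0, 99 in Ctrl, 94 with FSH and 110 with LH. Of all 8175 clones it was lower for 4159, 4009, 3953 and 4151. The median difference was -0.24 at T0, -0.24 in Ctrl, -0.18 with FSH and -0.24 with LH. Over all clones the medians were -0.01, 0.005, 0.008 and -0.003. The 4 conditions rest on different arrays. The choice of clones used these arrays within each stage, but not the difference between stages. In each condition the arrays of stage III tended to have the lower median clone signal before normalisation, and its part was not tested.

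At T0, 30 of the 135 clones passed the stage test (limma, adjusted p under 0.05), 22.2%, near the background of 23.6% of all clones. The direction was uneven: 27 were lower in stage III, 20.0% against a background of 12%, and 3 were higher, 2.22% against 11.6%. In Ctrl, 44 clones passed, 32.6% against 11%. Of these 40 were lower, 29.6% against 5.32%, and 4 were higher, 2.96% against 5.72%.

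With FSH, 35 clones passed, 25.9% against 11.1%, of which 33 were lower, 24.4% against 5.52%, and 2 were higher, 1.48% against 5.6%. With LH, 46 passed, 34.1% against 11.6%. There 45 were lower, 33.3% against 6.64%, and 1 was higher, 0.741% against 4.92%. Clones above the median level were also fitted alone, with p-values adjusted over those clones only. Of them 15.9% were lower at T0, 8.69% in Ctrl, 7.61% with FSH and 9.89% with LH. These shares exceed those of all clones, but the adjustment differs.

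The lean towards lower values in stage III was not particular to the clones inside the hormone window. Of the 94 clones that rose in culture but fell outside it, 31.9% were lower at T0, 31.9% in Ctrl, 29.8% with FSH and 30.9% with LH. The difference between these sets was not tested.

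**Figure D5:**
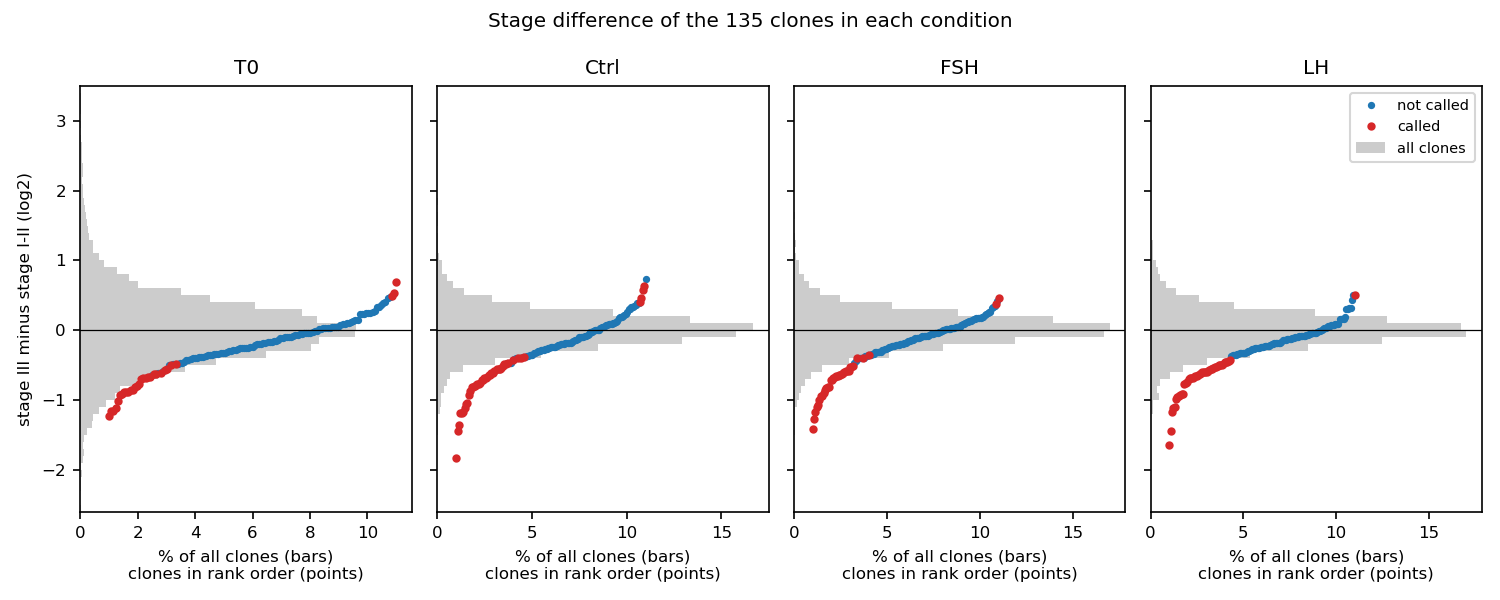
Stage III minus stage I-II (y axis, log2) at T0, in Ctrl, with FSH and with LH. Points are the 135 clones in rank order, red where limma's adjusted p was under 0.05. Grey bars give the percentage of all clones in each step of 0.1. In each panel most red points lie below 0, with 27 below at T0, 40 in Ctrl, 33 with FSH and 45 with LH.

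The calls fell on partly shared clones. In all, 64 clones were called lower in stage III in at least 1 condition, 47.4% against 18.5% of all clones, and 10 were called higher in at least 1, 7.41% against 15.8%. In no condition 63 were called, 46.7% against 66.2%. In Ctrl, FSH and LH together 23 were called lower, 17.0% against 2.31%. In all 4 conditions 13 were called lower, 9.63% against 1.22%: 1rt132h01_b_d01, 1rt146d15_b_b08, 1rt155e06_c_c03, 1rt39g22_c_d11, 1rt49j21_b_e11, tcad0002.l.09, tcay0009.l.07, tcay0015.j.13, tcay0027.n.14, tcba0020.e.11, tcba0030.f.15, tcbk0029.e.11 and tcbk0051.p.06. Clone tcba0030.f.15 was one of them, at -0.80, -1.12, -1.10 and -1.17 at T0, in Ctrl, with FSH and with LH. Clone 1rt132h01_b_d01 gave -0.67, -0.65, -0.60 and -0.68.

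At T0 the greatest falls belonged to 1rt39g22_c_d11, 1rt162h02_d_d01 and 1rt69m03_a_g02. Clone 1rt39g22_c_d11, whose arrays are given above, was lower in stage III by 1.22 ± 0.226 (adjusted p = 4.9e-05, limma), with no overlap between the stages. Clone 1rt162h02_d_d01 read 9.38, 9.51 and 9.52 in stage I-II against 8.16, 8.30 and 8.48 in stage III, a log2 difference of -1.16 (adjusted p = 5.7e-05, limma). Clone 1rt69m03_a_g02 read 8.93, 9.02 and 9.47 in stage I-II against 7.74, 7.97 and 8.24 in stage III, a log2 difference of -1.16 (adjusted p = 1.1e-05, limma). In both, every stage I-II array exceeded every stage III array. After culture 1rt69m03_a_g02 no longer passed the stage test, with log2 differences of -0.24 in Ctrl, -0.22 with FSH and -0.22 with LH, and its Ctrl arrays overlapped at 10.42 to 10.80 and 9.82 to 10.87.

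The 3 clones called higher at T0 in stage III differed by less. Clone tcba0008.g.18 read 7.91, 8.03 and 8.35 in stage I-II against 8.68, 8.84 and 8.84 in stage III, a difference of 0.69 ± 0.182 (adjusted p = 0.0038, limma). With LH the same clone was lower in stage III by 0.50 (adjusted p = 0.0066). Clone tcay0026.b.17 read 7.10, 7.32 and 7.86 against 7.82, 7.95 and 8.10. These ranges overlapped, and the adjusted p of 0.048 lost the threshold when any of 5 of the 6 T0 arrays was left out, with values of 0.056 to 0.27. Clone 1rt28e12_c_c06 was called (adjusted p = 0.012, limma), but no T0 array of either stage lay above background, so no fold is given. Without T0 replicate 3 of stage I-II the adjusted p was 0.1. After culture the same clone was called lower in stage III, with log2 differences of -1.045 in Ctrl, -0.83 with FSH and -0.96 with LH.

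In hormone-free culture the stages differed most in tcay0009.l.07, which was lower in stage III by 1.83 ± 0.137, or 3.55-fold (adjusted p = 1.2e-13, limma). Its 6 Ctrl arrays of stage I-II all exceeded the 6 of stage III, as the values above show. Clone 1rt155e06_c_c03 read 10.42, 10.75 and 11.16 at the lowest, median and highest Ctrl array of stage I-II against 8.86, 9.44 and 9.71 in stage III. It was lower by 1.45 ± 0.141, or 2.73-fold (adjusted p = 2.3e-10), and its stages did not overlap in any of the 4 conditions. Clone tcba0014.h.05 read 9.34 to 9.93 against 7.71 to 8.84, a 2.58-fold lower level (adjusted p = 6.6e-10, limma).

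Of the 4 clones called higher in Ctrl of stage III, the 3 with the greatest differences are given. Clone 1rt92g03_a_d02 ran from 9.30 to 9.62 in stage I-II and from 9.78 to 10.22 in stage III, higher by 0.57 ± 0.157 (adjusted p = 0.011, limma) with no overlap. Clone tcbi0010.b.07 was higher by 0.64 ± 0.208 (adjusted p = 0.036) and tcay0035.b.24 by 0.46 ± 0.153 (adjusted p = 0.043). In both the stages overlapped. The first lost the call when any of 8 of the 12 Ctrl arrays was left out, with adjusted p up to 0.11, and the second when any of 9 was, with adjusted p up to 0.11. None of the 135 clones was called higher in all 3 cultured conditions, against 2.28% of all clones.

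In the deposited values the rise differed between the stages by under 0.5 in 107 clones and by over 1 in 4, and 3 of these 4 lay at background at T0 in at least 1 stage. Both rises were used for the choice, so these values are a description. Of the 67 clones with the lower value in stage III, 1rt28e12_c_c06, with 3.49 against 1.96, and tcay0009.l.07, with 4.67 against 3.42, were listed with the greatest differences. Clone tcbk0019.f.14 followed with 4.85 against 3.83. For 1rt28e12_c_c06 no T0 array was above background, so its place rests on values at background, and the rises were at least 6.59-fold and at least 3.20-fold on the scanner scale. Its Ctrl arrays, at 8.91 to 9.28 and 7.86 to 8.31, did not overlap. Of the 68 with the higher value in stage III, 1rt146i23_a_e12, with 1.36 against 2.43, and 1rt69m03_a_g02, with 1.50 against 2.41, were listed with the greatest differences. In both the Ctrl levels of the stages overlapped and the T0 levels did not. Clone 1rt146i23_a_e12 read 6.90, 6.93 and 7.23 at T0 in stage I-II against 5.89, 5.89 and 6.22 in stage III, where it was not above background and its rise is known only as at least 3.86-fold. Its Ctrl arrays ran from 8.15 to 8.55 and from 7.87 to 8.88.

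Most of the 135 clones came from the libraries that are commonest on the membrane. The prefix of the ID, taken here as the clone library, was 1rt in 48 of them, 35.6% against 34.7% of all clones, and tcay in 23, 17.0% against 17.0%. It was tcbk in 38, 28.1% against 23.1%, and tcba in 11, 8.1% against 10.2%. Among rarer prefixes, tcac made up 0.7% against 3.1%, tcav 3% against 1.8%, and tcab 0% against 1.1%. The clones did not move as 1 block within groups. With group means removed, the median correlation of the 9045 pairs over the 42 arrays was 0.004, and over pairs of all clones it was -0.007. In 76 pairs of the 135 clones it exceeded 0.7, and no such count over pairs of all clones is given here to compare. These correlations are descriptions, and the points share membranes and hybridisations.

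Position on the membrane moved with some of these values. Clones were placed on the membrane by matching profiles, and 132 of the 135 took the position nearest to their profile. Touching spots are the up to 8 next to a spot in its block. In all, 34 of the 135 clones (25.2%) touched another of the 135. Of the other 94 raised clones, 17 (18.1%) touched at least 1 of the 135, and of all clones 9.7% did. The closest pair within groups, 1rt40i14_c_e07 and 1rt40k21_a_f11, touched, with a correlation of 0.889 with group means removed. Some dimmer clones of the set lay beside clones among the 10 with the greatest mean rise: tcbk0019.d.07 beside tcbk0019.f.14, 1rt146i23_a_e12 beside 1rt146k24_c_f12, tcbk0023.k.06 and tcbk0048.k.10 beside tcbk0048.j.08, tcay0003.p.11 beside tcay0003.o.23, and 1rt153g11_a_d06 beside tcac0006.o.18. Their mean levels were 6.12 beside 9.01, 7.89 beside 10.45, 6.22 and 6.37 beside 9.97, 6.76 beside 10.03 and 6.66 beside 9.85. Clone 1rt39h07_b_d04, at 7.92, likewise lay beside 1rt39g22_c_d11, at 10.57. Clones 1rt142a03_a_a02, tcay0005.k.22 and tcad0002.l.18, at 8.21, 8.03 and 9.34, lay beside tcad0002.l.09, at 10.49.

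A spot over 4 times brighter was touched by 33 of the 135 clones (24.4%) and by 52% of all clones. In 16 of the 33, 11.9% of the 135, that brighter spot had itself risen by at least 1 at both stages. The same held for 5.3% of all clones, 430 of the 4254 that touched such a spot. For the other 94 raised clones it was 4.3%, 4 of the 17 that touched one. The part of neighbouring spots in these values was not tested. Without all clones that touch such a spot, an alternative chosen after seeing the data, 102 clones were left of the 135 and 3921 of all clones. Of the 102, 24 passed the stage test at T0, 23.5% against 30.1% of the 3921. In Ctrl 41 passed, 40.2% against 16.9%, with FSH 27, 26.5% against 16.5%, and with LH 39, 38.2% against 17.3%. Those lower in stage III were 21, 38, 25 and 38, or 20.6%, 37.3%, 24.5% and 37.3%, against 14%, 7.93%, 7.12% and 9.54%. None of the 10 clones with the greatest rise touched such a spot.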

How the data were processed

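Total RNA of whole testis was copied with 33P-labelled nucleotides and hybridised to 42 nylon membranes, 1 sample each, per the labels. The authors deposited a log2 table, which names clones, and the scanner's spot intensity per array, which names positions. For the log2 table the sources used here name no normalization. The median of a column was 7.15 to 7.17, and the table's median correlation with normalised scanner signal was 0.83 over clones. Of 9216 rows, 8175 held values. Clones were assigned to positions by profile, and 93.4% took the nearest. Background was the median of the positions inferred to be blank plus 3 scaled median absolute deviations per array, on linear intensity as deposited.

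The 8 group means were fitted to the 8175 clones in limma 3.58.1 (R 4.3.3) with empirical Bayes moderation. Two-sided p-values were Benjamini-Hochberg adjusted within each comparison over all clones, and an adjusted p under 0.05 was called. No filter on dim clones was applied. The fit was tested on simulated data. The clones named are the 10 with the greatest mean rise, the 3 greatest rises and falls called between stages at T0 and in Ctrl, the 2 extremes each way of the rise between stages, those nearest each threshold, the 2 highest and 2 lowest Ctrl levels, and any called for a hormone difference between stages. The clones and the rule were chosen with earlier results of these data known. Where no T0 array exceeded background, a fold is a lower bound from scanner values against, per array, the clone's own signal or the dimmest signal above background, whichever was higher. Alternatives covered input values, centring, dim clones, moderation, array weights, groups in the fit, export order, each array left out, and the thresholds of the choice. The number of arrays limits the precision.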

Additional observations from a re-analysis of the deposited data

Results flagged for a closer look

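Among 180 groups of 6 arrays, 14 held a value far from the other 5, and chance gives about 1 in 20 groups, or 9. In stage III Ctrl replicate 55 was the far value for 3 clones: tcbk0048.j.08 read 11.56 and the others 10.66 to 10.85, tcbi0010.b.07 read 7.19 against 7.68 to 7.92, and tcay0034.e.13 read 12.38 against 12.82 to 13.08. In stage I-II Ctrl, replicate 20 stood apart for tcad0002.l.09 at 12.18, against 11.62 to 11.76, and for tcay0003.o.23 at 10.75, against 10.83 to 10.87. Replicate 22 of that group stood apart for tcbk0023.k.06 at 7.10, against 6.33 to 6.61, and for tcay0036.o.17 at 8.50, against 8.75 to 8.87. The mean over the 135 clones was 9.161 on replicate 21 of that group, against 9.225 to 9.253 on the others.

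With LH in stage III, replicate 68 stood apart for tcbk0019.f.14 at 9.66, against 9.29 to 9.40, and for tcay0036.o.17 at 9.28, against 8.75 to 8.86. Replicate 70 stood apart for 1rt102i12_c_e06 at 9.19, against 9.50 to 9.63, and replicate 69 for tcbk0019.d.07 at 6.28, against 5.85 to 6.01. With LH in stage I-II, replicate 33 read 9.43 for 1rt92g03_a_d02, against 9.94 to 10.12. With FSH in stage III, replicate 65 read 9.30 for 1rt155e06_c_c03, against 9.60 to 9.77.

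The repeated control positions, which no comparison uses, read 2.56 times higher at T0 than in Ctrl in stage I-II and 4.81 times higher in stage III. In stage III 1 T0 array read 1125.5 units, and the lowest read 209.5.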

How the results depend on the processing

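The counts of clones called between stages stayed within 1.5 times the count reported, with more lower than higher, under every setting run. Leaving out each array in turn gave 22 to 27 calls at T0, 34 to 49 in Ctrl, 28 to 37 with FSH and 39 to 49 with LH. The calls for a hormone difference between stages stayed at 0 to 0 for FSH and for LH. The number of clones chosen ran from 123 to 150 when each array was left out, 82 of the 135 were kept each time, and 214 clones were chosen at least once. It was 224 with a rise of at least 0.8, 81 with a rise of at least 1.2, and 65 with the hormone window applied to each stage. Scanner values gave 139 clones, of which 114 were shared. No paired analysis was possible because the groups share no replicate numbers. Without clones beside a far brighter spot, chosen after seeing the data, 102 were left. Calls of dim clones are limited by signal over background.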
